A study of Mus musculus with 52 samples.

Results

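The change in the transcriptome of the mouse suprachiasmatic nucleus (SCN) between 0.5 h and 1 h of light was taken from 6 bulk RNA-seq libraries, 2 of 1 h of light against 4 of 0.5 h. These are 6 of the 16 libraries of a light-pulse experiment and of 52 samples in the series. Every library came from wild-type (WT) male mice of 11 to 12 weeks, held 6 pairs of SCNs, and followed a pulse that began at CT17, circadian time 17, in the subjective night. The 1 h group is 1 h replicates 1 and 2. The 0.5 h group is replicates 1 and 2 and replicates 1s and 2s, whose suffix s the labels do not explain. The other 10 libraries of the experiment, used in the same model, are dark controls at CT17 (4, of which 2 carry the suffix) and CT23 (2) and pulses of 3 h (2) and 6 h (2). A second experiment supplied a comparison at 1 h, with 3 libraries each of Npas4-/- mice and WT littermates in the dark or after 1 h of light at CT17. Chromatin immunoprecipitation gave 1 peak list each for dark and 1 h of light, from 2 pairs of SCN per sample. Because the pulses began together, a longer pulse also ended later: duration of light and circadian time of collection cannot be told apart.

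The SCN is the hypothalamic clock that sets daily rhythms, and light in the subjective night reaches it through glutamate release from retinal axons. Calcium and cAMP signalling then activate CREB, SRF and related factors that switch on immediate-early genes without new protein synthesis. The products of these genes, among them the AP-1, EGR, NR4A and NPAS4 transcription factors, act on later genes, while phosphatases and RNA-binding proteins end the first wave. Per1 and Per2, the light-responsive clock genes, couple this response to a phase shift of the clock.

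The libraries without the suffix held 12477382 to 15369985 counts and those with it 27413860 to 30149286. The first principal component of the experiment (30.0% of variance) separated 0.5 h replicates 2 and 2s, at 35.2 and 34.7, from both 1 h libraries, at -14.3 and -10.9, while 0.5 h replicates 1 and 1s lay at -6.99 and 15.4. Both 1 h libraries are labelled batch 2 without the suffix; 0.5 h replicates 1 and 2 are labelled batch 1, and replicates 1s and 2s batch 2. Among libraries without the suffix, those of 0.5 h are all batch 1 and those of 1 h all batch 2. In a model with a term for the suffix alone, label batch and step therefore cannot be told apart. Only the CT23 dark libraries, 1 of each batch, separate the batch from the suffix within a group. No pair of libraries within the 2 groups differed as little as repeat sequencing of 1 library would (chi-square per degree of freedom 4.88 to 33.9). The labels do not say which libraries came from separate animals, so p-values measure only the spread between these libraries. The 0.5 h libraries that share a number deviated together from the means of their suffix (correlation 0.57 over genes for replicates 1 and 1s), so the 4 may not be independent. Markers of SCN neurons were present: Vip was at 156 to 221 RPKM and Six6 at 26.8 to 37.9 RPKM over the libraries of 0.5 h and 1 h.

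Between 0.5 h and 1 h, 63 genes rose and 9 fell among 14524 tested (adjusted p under 0.05, edgeR's quasi-likelihood test with Benjamini-Hochberg adjustment and a term for the suffix). These are 0.434% and 0.062% of the genes tested, or 0.496% together. The gene lists used below were chosen with earlier results of these data known, so their counts of risers are descriptions and no test. The risers were led by Gprc5a, Prok2, Fosl1, Gpr3, Homer1, Rrad, Fosl2 and Maff, and the fallers by Npas4. Levels are given as CPM, read counts scaled to a common library size with TMM, and changes are log2 differences of 1 h minus 0.5 h from that fit. The median change over all genes tested was 0.00278. Both 1 h libraries lay above all 4 of 0.5 h in 1476 genes (10.2%) and below them in 1399 (9.63%), so separation of the groups was common. The counts rest on both 1 h libraries: 28 genes rose and 2 fell without 1 h replicate 1, and 40 and 5 without 1 h replicate 2. Leaving out 0.5 h replicate 1, 1s, 2 or 2s gave 61, 57, 52 or 52 risers and 36, 8, 4 or 5 fallers in all. Of these, 54, 56, 47 or 52 risers and 6, 7, 4 or 5 fallers were among the 63 and 9.

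**Figure D1:**
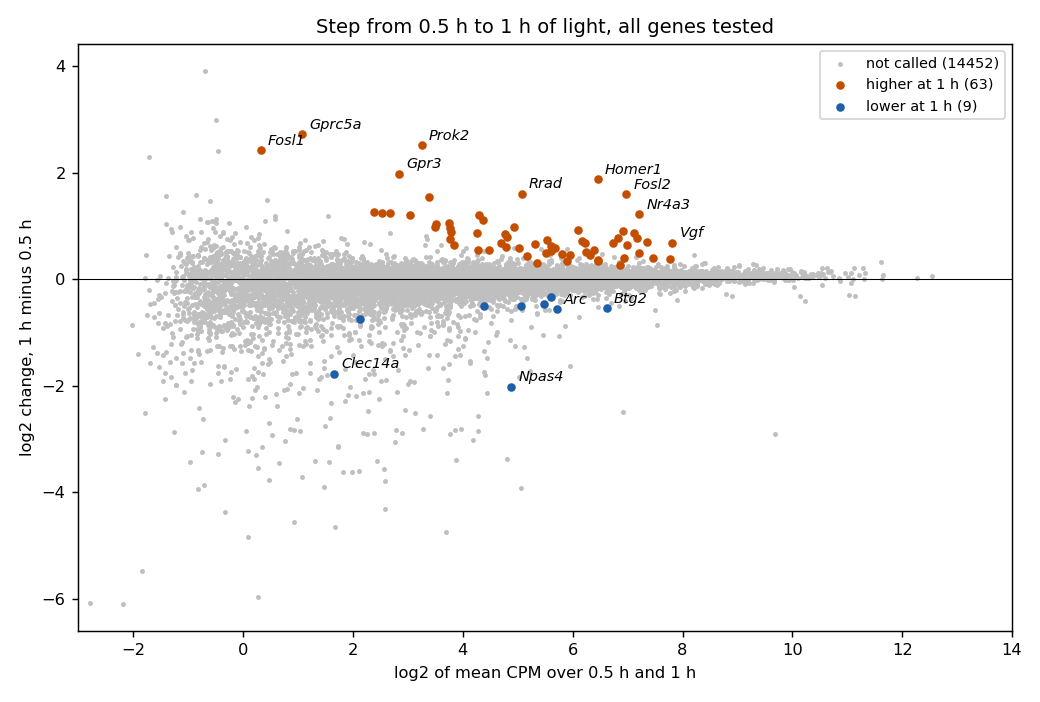
Change from 0.5 h to 1 h of light (y axis, log2) against the log2 of mean CPM over the 2 groups (x axis), with 1 point per gene tested. Orange points are the 63 genes higher at 1 h and blue points the 9 lower, at adjusted p under 0.05. Grey points with large negative values at low CPM did not pass the test.

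Homer1 encodes a scaffold of postsynaptic glutamate receptor signalling whose short activity-induced form displaces the long ones; gene counts do not separate these forms. It lies at chr13:93303757-93405129 (GRCm38.p6). Homer1 stood at 39.0, 36.2, 37.2 and 35.3 CPM in 0.5 h replicates 1, 1s, 2 and 2s, and at 143 and 134 CPM in the 1 h libraries. The groups were far apart, and the 4 libraries of 0.5 h sat just above the dark ones at CT17 (32.3 to 34.6 CPM). The step was 1.88 ± 0.09 (SE; adjusted p = 2.2e-08), a 3.68-fold rise, whereas 0.5 h minus dark was 0.15 (adjusted p = 1). At 3 h the libraries were back to 57.9 and 72.8 CPM, and at 6 h to 33.2 and 32.2 CPM.

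Prok2 encodes prokineticin 2, a secreted peptide proposed as an output signal of the SCN. Its level was 2.29, 1.76, 3.44 and 1.18 CPM in 0.5 h replicates 1, 1s, 2 and 2s and 18.5 and 15.2 CPM at 1 h. The lower 1 h library exceeded the highest of 0.5 h, and the change was 2.51 ± 0.27 (SE; adjusted p = 0.000144). Prok2 remained raised later, with 12.1 and 12.4 CPM at 3 h and 9.76 and 6.65 CPM at 6 h. It was the called gene among 22 tested SCN peptides and receptors, where 0.434% of all genes tested rose. Vip changed by 0.25 (adjusted p = 0.672), Grp by 0.17 (0.893) and Avp by -0.88 (0.544). Avp ranged from 31.6 to 127 CPM within the 0.5 h group, which overlapped the 33.002 and 36.5 CPM of 1 h.

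Gpr3 encodes a constitutively active receptor that raises cAMP, and Gprc5a an orphan receptor inducible by retinoic acid. Gpr3 went from 2.52, 2.82, 3.23 and 2.79 CPM in replicates 1, 1s, 2 and 2s to 12.4 and 10.5 CPM, a change of 1.98 ± 0.17 (SE; adjusted p = 1.9e-05). Gprc5a went from 0.457, 0.563, 0.912 and 0.459 CPM to 4.26 and 2.99 CPM (2.72 ± 0.50, SE; adjusted p = 0.0188). The groups did not overlap for either gene. Gprc5a rests on few counts, and its adjusted p was 0.321 without 1 h replicate 1, 0.0641 without 1 h replicate 2 and 0.0696 without 0.5 h replicate 1.

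**Figure D2:**
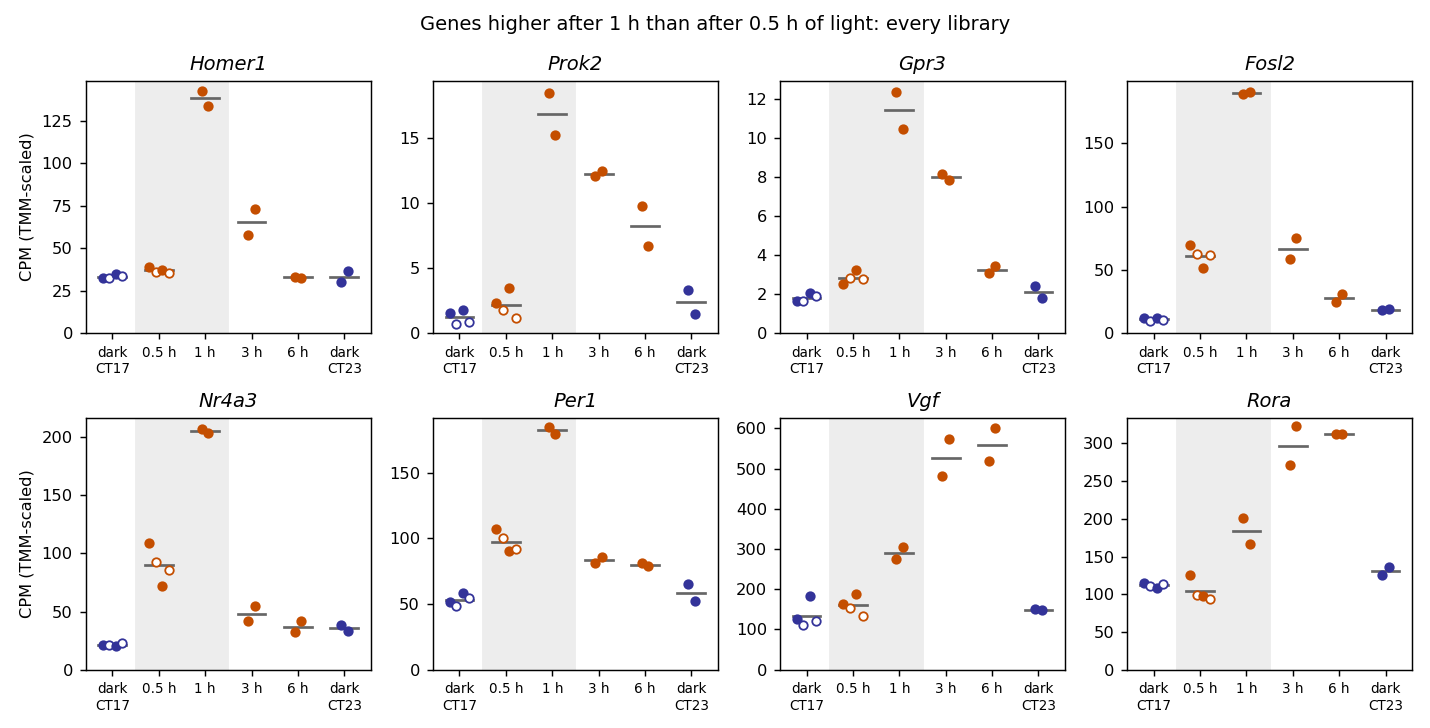
CPM of 8 genes that rose, in every library of the light-pulse experiment (x axis: dark CT17, light for 0.5, 1, 3 and 6 h, dark CT23; y axis: TMM-scaled CPM from 0). Open circles are libraries with the suffix s, bars are group means, and the shaded columns are the 2 groups compared. Homer1 is at 35.3 to 39.0 CPM after 0.5 h and at 134 and 143 CPM after 1 h, while Vgf and Rora are higher still at 3 h.

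Among the AP-1 subunits, the members that rose were the FRA proteins, which have no transactivation domain like that of FOS. Fosl2, encoding FRA-2, was at 69.4, 62.4, 51.8 and 61.6 CPM in 0.5 h replicates 1, 1s, 2 and 2s and at 189 and 190 CPM at 1 h (1.60 ± 0.12, SE; adjusted p = 6.9e-06). Fosl1, encoding FRA-1, was at 0.457, 0.317, 0.351 and 0.427 CPM and then at 2.13 and 2.09 CPM (2.42 ± 0.41, SE; adjusted p = 0.01). Both were separated between the groups, and Fosl2 had already risen by 0.5 h, at 2.53 over CT17 dark. Altogether 2 of 9 tested AP-1 genes rose (0.434% of all genes tested did), none fell, and the list's median was 0.16. Fosl1 lost its call without 1 h replicate 1 (adjusted p = 0.126), 1 h replicate 2 (0.0852) or 0.5 h replicate 2 (0.0541).

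Fos itself was at 225, 223, 211 and 200 CPM in 0.5 h replicates 1, 1s, 2 and 2s and at 144 and 149 CPM at 1 h. Both 1 h libraries lay below all 4 of 0.5 h, at -0.57 ± 0.13 (SE), but the adjusted p was 0.0685 with edgeR. The same difference had an adjusted p of 0.00486 with DESeq2 and of 0.0483 with upper-quartile scaling in edgeR. Fosb was at 84.5 to 143 CPM at 0.5 h and 114 CPM in both 1 h libraries (0.24, adjusted p = 0.686). Junb was at 68.6 to 92.3 CPM and at 73.2 and 82.4 CPM (-0.11, adjusted p = 0.924). For Fosb and Junb the groups overlapped.

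The orphan nuclear receptors of the NR4A family differed among themselves: 2 of 3 rose, against 0.434% of all genes tested. Nr4a3 was at 109, 92.4, 71.9 and 85.6 CPM in replicates 1, 1s, 2 and 2s of 0.5 h and at 207 and 204 CPM at 1 h (1.22 ± 0.14, SE; adjusted p = 0.00042). Nr4a2 was at 23.6, 24.9, 16.1 and 23.4 CPM and then at 39.3 and 39.4 CPM (0.99 ± 0.14, SE; adjusted p = 0.00256). In Nr4a1 the groups overlapped, at 110 to 132 CPM and at 125 and 120 CPM (0.06 ± 0.11, SE; adjusted p = 0.96). By 3 h all 3 were below their 1 h level, with Nr4a3 at 41.7 and 55.0 CPM, Nr4a1 at 14.1 and 16.1 CPM and Nr4a2 at 7.23 and 9.89 CPM. No test of Nr4a1 against Nr4a2 or Nr4a3 was made.

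The EGR family of zinc-finger activators did not pass, but their corepressor Nab2 did. Egr1 was at 424 to 582 CPM at 0.5 h and at 523 and 435 CPM at 1 h (0.04, adjusted p = 0.978), and Egr2 at 17.6 to 25.3 CPM and at 19.1 and 18.2 CPM (-0.30, adjusted p = 0.716). Nab2 rose from 8.38, 12.7, 9.82 and 11.9 CPM in replicates 1, 1s, 2 and 2s to 16.9 and 16.6 CPM (0.88 ± 0.12, SE; adjusted p = 0.00137). Its groups did not overlap. Of 6 genes tested in the list of Egr and Nab genes, 1 rose, against 0.434% of all genes tested, and none fell.

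Of 29 tested genes in a list of other immediate-early genes, 5 rose and 4 fell, and the median was 0.04. Over all genes tested, 0.434% rose and 0.062% fell. The members of the list that rose were Csrnp1, Gadd45b, Gadd45g, Klf10 and Maff, and those that fell were Arc, Btg2, Npas4 and Zfp36l2. Maff, a small MAF transcription factor without an activation domain, rose from 4.88, 4.998, 5.96 and 5.58 CPM in replicates 1, 1s, 2 and 2s to 13.3 and 17.6 CPM (1.54 ± 0.20, SE; adjusted p = 0.00102). Klf10, a repressor of the Krüppel-like family, rose from 8.08, 7.96, 9.89 and 9.09 CPM to 17.2 and 19.2 CPM (1.05 ± 0.13, SE; adjusted p = 0.000428). Csrnp1, a nuclear protein of the cysteine-serine-rich family, changed by 1.20 (adjusted p = 0.00413, and 0.0852 without 1 h replicate 2). Gadd45b and Gadd45g, stress sensors linked to DNA demethylation, changed by 1.04 and 0.80 (adjusted p = 0.00059 and 0.00256). Ier2, a nuclear protein of the first wave, stood at 12.5 to 15.7 CPM and at 13.3 and 12.1 CPM, a change of -0.01 (adjusted p = 0.995).

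Negative feedback on the MAP kinase pathway was represented by 4 risers among 16 tested genes, with no faller and a median of 0.24. Over all genes tested, 0.434% rose. Dusp4, a nuclear phosphatase that inactivates ERK, JNK and p38, rose from 12.5, 13.5, 10.3 and 11.3 CPM in replicates 1, 1s, 2 and 2s to 25.5 and 29.2 CPM (1.21 ± 0.15, SE; adjusted p = 0.000818). Dusp5, a nuclear phosphatase for ERK, rose from 3.05, 3.06, 3.65 and 3.67 CPM to 8.59 and 7.77 CPM (1.23 ± 0.19, SE; adjusted p = 0.00379, and 0.0844 without 1 h replicate 1). The groups were separated for both. Dusp10, which acts on JNK and p38, changed by 0.76 (adjusted p = 0.00263, and 0.0596 without 1 h replicate 1). Spry4, an inhibitor of receptor tyrosine kinase signalling, changed by 0.60 (adjusted p = 0.0276). Its call was lost without any 1 of 5 of the 6 libraries of the step; 0.5 h replicate 1 was the exception, and the adjusted p was 0.441 without 1 h replicate 1, 0.112 without 1 h replicate 2, 0.0508 without 0.5 h replicate 1s, 0.0813 without replicate 2 and 0.0524 without replicate 2s.

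In the list of cAMP and calcium feedback genes 3 of 19 rose, against 0.434% of all genes tested, and none fell. All 19 had a change above 0, with a median of 0.16. Over all genes tested 7381 of 14524 had a change above 0. Besides Gpr3 the risers of the list were Rrad and Gem, small GTPases that inhibit voltage-gated calcium channels. Rrad was at 18.4, 19.1, 16.6 and 15.8 CPM in replicates 1, 1s, 2 and 2s of 0.5 h and at 47.3 and 52.6 CPM at 1 h (1.61 ± 0.15, SE; adjusted p = 3.9e-05). Gem was at 13.5, 12.2, 14.3 and 12.1 CPM and then at 28.4 and 28.0 CPM (1.11 ± 0.13, SE; adjusted p = 0.00042). Neither overlapped, and they parted at 3 h, where Rrad was at 16.2 and 18.5 CPM and Gem still at 25.04 and 30.8 CPM. Crem, which encodes the cAMP-inducible repressor ICER, was at 23.6 to 25.7 CPM and then at 38.4 and 34.3 CPM, a change of 0.59 with an adjusted p of 0.0617 in edgeR and of 0.00475 in DESeq2. Sik1, the salt-inducible kinase that restrains CREB coactivators in the SCN, was at 72.7 to 106 CPM and at 129 CPM in both 1 h libraries (0.41, adjusted p = 0.0939, and 0.0464 without 0.5 h replicate 1). Rasd1, a light-regulated small G protein of the SCN, was at 83.8 to 108 CPM and at 107 CPM in both 1 h libraries, and its groups overlapped (0.12, adjusted p = 0.865).

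In the core clock list 3 of 26 genes rose, against 0.434% of all genes tested, and none fell, with a median of 0.07. Per1, at chr11:69095108-69109965, was at 107, 100, 90.0 and 91.5 CPM in replicates 1, 1s, 2 and 2s of 0.5 h and at 185 and 179 CPM at 1 h (0.87 ± 0.09, SE; adjusted p = 0.000192). Per2, at chr1:91415977-91459351, was at 61.7, 52.7, 56.0 and 55.9 CPM and at 103 and 81.6 CPM (0.68 ± 0.09, SE; adjusted p = 0.00102). Both were separated between groups but their dark levels placed them differently: over CT17 dark, 0.5 h was at 0.87 for Per1 (adjusted p = 2.7e-06) and at 0.02 for Per2 (adjusted p = 1). At 3 h Per1 was at 81.4 and 85.7 CPM, below its 1 h level, and Per2 at 120 and 124 CPM, above it. Rora, a nuclear receptor that activates Bmal1, was at 126, 98.7, 98.2 and 94.0 CPM and at 201 and 166 CPM (0.77 ± 0.11, SE; adjusted p = 0.00206, and 0.0889 without 1 h replicate 1). Rora also went on to 271 and 323 CPM at 3 h, and it was the riser among 12 tested SCN transcription factors.

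Delayed synaptic and secreted genes supplied 8 risers of 32, against 0.434% of all genes tested, with no faller and a median of 0.28. The 8 were Dnajb5, Homer1, Nptx1, Per1, Pim1, Plk2, Plk3 and Vgf. Nptx1, a secreted organizer of AMPA receptors, was at 80.0, 102, 77.5 and 94.3 CPM in replicates 1, 1s, 2 and 2s of 0.5 h and at 142 and 134 CPM at 1 h (0.78 ± 0.09, SE; adjusted p = 0.00042). Vgf, a precursor of secreted neuropeptides, was at 163, 155, 189 and 134 CPM and at 275 and 304 CPM (0.69 ± 0.13, SE; adjusted p = 0.0282). Both went higher at 3 h, Nptx1 to 261 and 273 CPM and Vgf to 480 and 574 CPM. The call of Vgf was lost without 1 h replicate 1 (adjusted p = 0.152), 1 h replicate 2 (0.277), 0.5 h replicate 1 (0.0963) or 0.5 h replicate 2s (0.0643). Pim1, a serine/threonine kinase, changed by 0.98 (adjusted p = 0.0188, but 0.321 without 1 h replicate 1, 0.0928 without 1 h replicate 2 and 0.0595 without 0.5 h replicate 2). Plk2, a kinase that weakens active synapses, changed by 0.45 (adjusted p = 0.00616, but 0.0564 and 0.128 without 1 h replicates 1 and 2). Dnajb5, a heat-shock cochaperone, changed by 0.68 (adjusted p = 0.00379, but 0.152 without 1 h replicate 1). Plk3, a stress-responsive kinase, changed by 0.65 (adjusted p = 0.0209), and its adjusted p was 0.0830, 0.266, 0.0581 and 0.0897 without 1 h replicates 1 and 2 and 0.5 h replicates 1 and 2. Bdnf, a neurotrophin of this class in other neurons, was at 8.76 to 10.1 CPM and at 10.3 and 9.33 CPM (0.04, adjusted p = 0.985).

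Some risers outside these lists were chosen for mention after their values were seen. Srxn1, which reduces oxidised peroxiredoxins, was at 83.3, 89.2, 80.8 and 88.9 CPM in replicates 1, 1s, 2 and 2s of 0.5 h and at 163 and 148 CPM at 1 h (0.91 ± 0.06, SE; adjusted p = 6.8e-07). Usp36, a nucleolar deubiquitinase, changed by 0.92 (adjusted p = 2.0e-05), and Fam13c by 0.72 (adjusted p = 1.4e-05). Creb3l1, a membrane-bound transcription factor that regulates Avp in other hypothalamic neurons, went from 18.7 to 23.9 CPM at 0.5 h to 37.9 and 30.0 CPM at 1 h (0.84, adjusted p = 0.00138, and 0.0615 without 1 h replicate 1). The groups of Srxn1 and Creb3l1 did not overlap. Arl4d, a small GTPase, and Sertad1, a cell-cycle coregulator, changed by 1.26 and 1.25 (adjusted p = 0.0137 and 0.00581). Both lost their call without either 1 h library: the adjusted p was 0.187 and 0.0855 for Arl4d, and 0.0836 and 0.0646 for Sertad1, without 1 h replicates 1 and 2.

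The risers spanned a wide range of transcript levels. Scaled by transcript length as RPKM, the mean at 1 h was 95.6 for Vgf, 54.0 for Srxn1, 33.7 for Nr4a3, 31.7 for Per1 and 31.1 for Rrad. Fosl2 was at 19.2 RPKM, Homer1 at 12.9 RPKM, Prok2 at 8.63 RPKM and Gpr3 at 4.10 RPKM. Fosl1, the lowest of these, was at 1.21 RPKM.

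**Figure D3:**
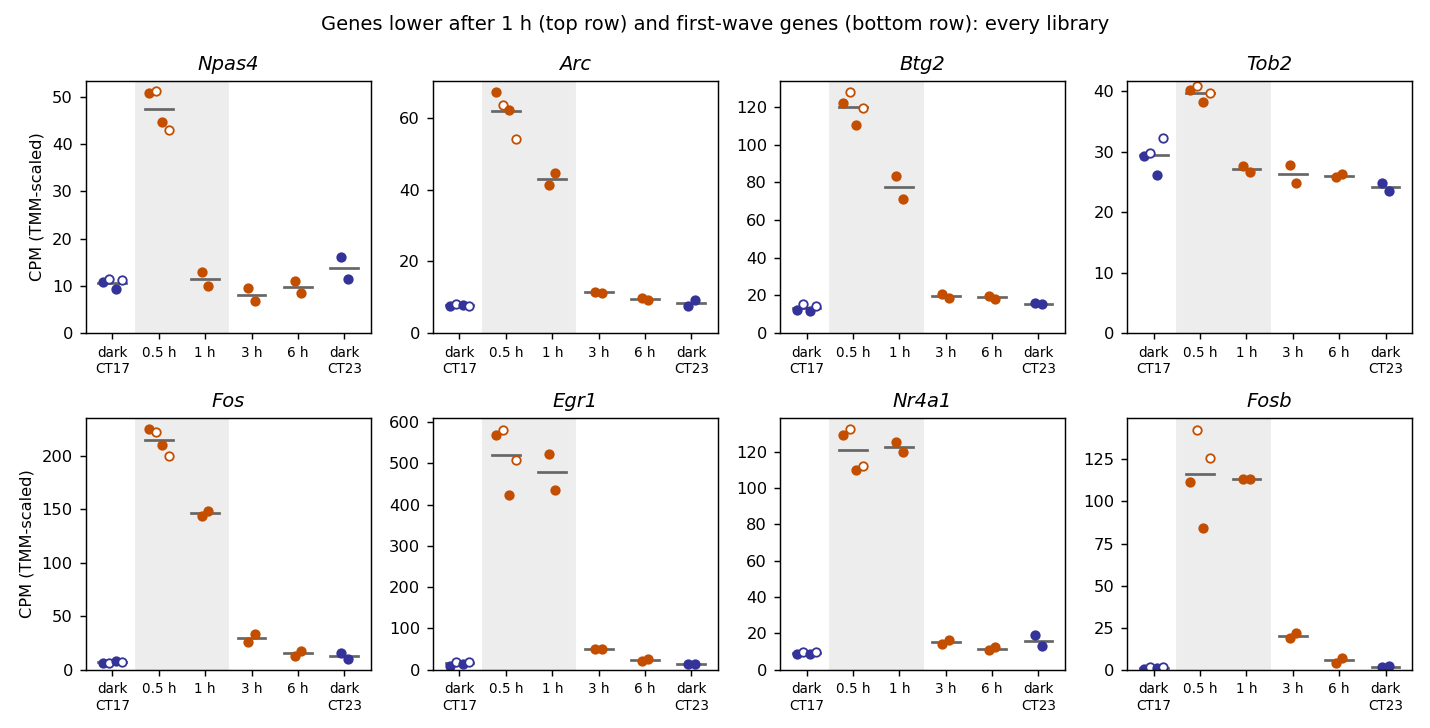
CPM in every library of the light-pulse experiment for 4 genes that fell (top row: Npas4, Arc, Btg2, Tob2) and 4 immediate-early genes that did not pass the test (bottom row: Fos, Egr1, Nr4a1, Fosb), with axes and symbols as in the plot of rising genes. Npas4 is at 42.9 to 51.1 CPM after 0.5 h and at 13.0 and 9.86 CPM after 1 h, and Arc and Btg2 stay well above the dark libraries at 1 h.

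Among the genes that fell, Npas4, a neuronal bHLH-PAS transcription factor induced by calcium influx, moved most. It was at 50.9, 51.1, 44.6 and 42.9 CPM in replicates 1, 1s, 2 and 2s of 0.5 h and at 13.0 and 9.86 CPM at 1 h. The groups were far apart, and the 1 h libraries lay at the level of the CT17 dark ones, 9.27 to 11.5 CPM. The step was -2.02 ± 0.18 (SE; adjusted p = 1.9e-05), while 1 h minus dark was 0.12 (adjusted p = 0.957). Npas4 kept its call when any 1 of the 6 libraries was left out, but not with terms for both suffix and label batch (-1.52, adjusted p = 0.148).

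Arc, an activity-regulated postsynaptic protein that drives AMPA receptor endocytosis, fell from 67.5, 63.9, 62.4 and 54.2 CPM in replicates 1, 1s, 2 and 2s to 41.4 and 44.7 CPM (-0.56 ± 0.09, SE; adjusted p = 0.00616, and 0.191 without 1 h replicate 1). Btg2, an antiproliferative cofactor that promotes mRNA deadenylation, fell from 122, 128, 110 and 119 CPM to 83.3 and 71.2 CPM (-0.54 ± 0.09, SE; adjusted p = 0.00616, and 0.157 without 1 h replicate 2). Both were separated between the groups, and at 1 h both were still above CT17 dark, by 2.42 for Arc and 2.61 for Btg2. Tob2, a relative of Btg2, fell from 40.2, 40.8, 38.2 and 39.7 CPM to 27.7 and 26.6 CPM (-0.50 ± 0.08, SE; adjusted p = 0.00581, and 0.0777 and 0.108 without 1 h replicates 1 and 2). The CT17 dark libraries had Tob2 at 26.1 to 32.3 CPM, around its 1 h level.

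The other 5 fallers had weaker support. Zfp36l2, a protein that targets AU-rich mRNAs for decay, changed by -0.33 (adjusted p = 0.0492) and lost its call without any 1 of the 6 libraries, with adjusted p from 0.0513 without 0.5 h replicate 2s to 0.522 without 1 h replicate 1. Tmem106a changed by -0.74 (adjusted p = 0.0366) and also lost its call without any 1 of them, with adjusted p from 0.0541 without 0.5 h replicate 1s to 0.295 without 1 h replicate 2. Hs3st1, a heparan sulfate sulfotransferase, changed by -0.50 (adjusted p = 0.0415), and without 1 h replicate 1 or 2 or 0.5 h replicate 1, 2 or 2s its adjusted p was 0.33, 0.287, 0.0924, 0.07 or 0.0806. Klf3, a transcriptional repressor, changed by -0.47 (adjusted p = 0.0174, and 0.152, 0.219 and 0.0897 without 1 h replicates 1 and 2 and 0.5 h replicate 2). Clec14a, an endothelial cell surface lectin, was at 3.51, 3.20, 8.14 and 4.27 CPM in replicates 1, 1s, 2 and 2s and at 1.83 and 1.27 CPM (-1.77 ± 0.35, SE; adjusted p = 0.0303). Replicate 2 of 0.5 h stood highest. Without it the adjusted p was 0.0659, without 0.5 h replicate 2s 0.0602, and without 1 h replicates 1 and 2 0.189 and 0.311. Beside Clec14a, the summed CPM of 7 endothelial markers was 209 in 0.5 h replicate 2, 137 to 169 in the other 0.5 h libraries and 127 to 129 at 1 h; their part in the result was not tested.

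**Figure D4:**
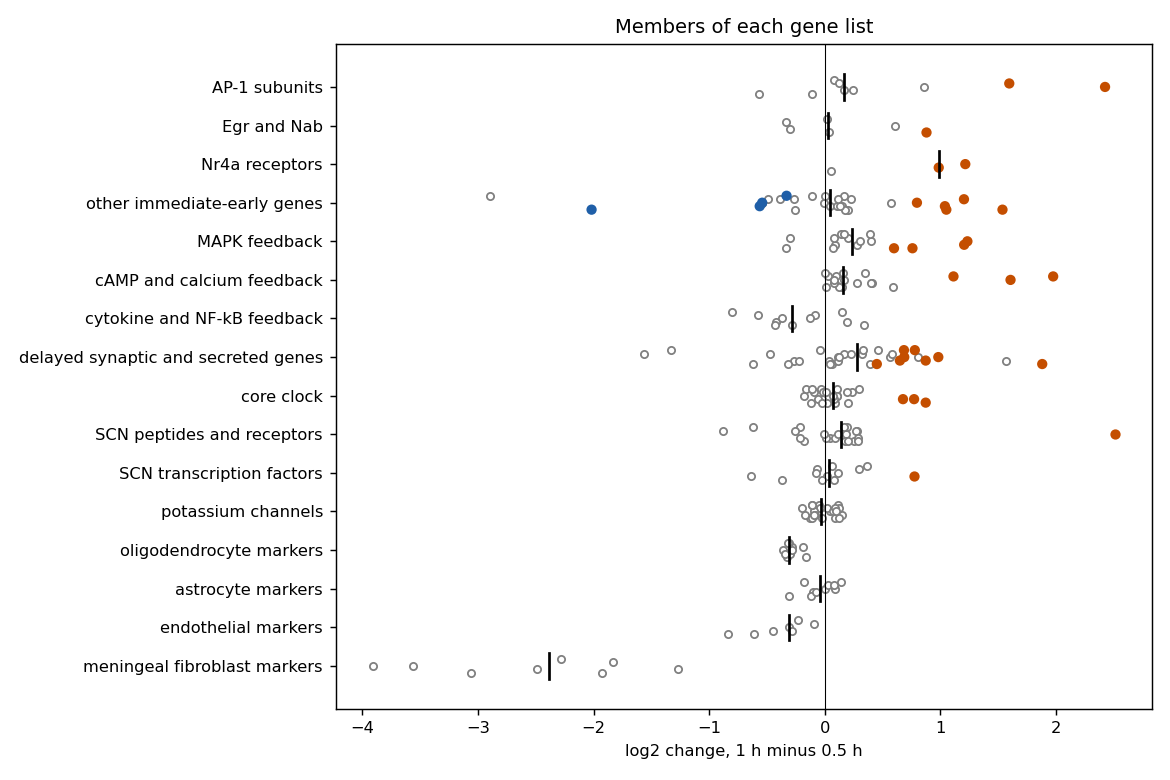
Change from 0.5 h to 1 h (x axis, log2) of each tested member of 16 gene lists (y axis), with 1 point per gene and a black bar at the list's median. Filled points passed adjusted p under 0.05 (orange higher, blue lower) and open points did not. The AP-1, Nr4a, MAPK and cAMP lists hold filled points to the right, and the meningeal list lies far to the left with no call.

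In the 8 lists of other cell types of this tissue no gene was called in either direction. The 8 meningeal fibroblast markers had a median of -2.39, none above 0, with a summed CPM of 987 and 448 in 0.5 h replicates 2 and 2s, 102 and 103 in replicates 1 and 1s and 80.8 to 84.6 at 1 h. The 10 oligodendrocyte markers had a median of -0.31, none above 0, with a summed CPM of 5341 to 8855 at 0.5 h and 4097 to 6013 at 1 h. Medians were -0.04 for 10 astrocyte, -0.10 for 9 microglia, -0.31 for 7 endothelial, -0.09 for 6 ependymal and tanycyte, -0.36 for 5 blood markers and -0.32 for 15 markers of neighbouring hypothalamic neurons. The 15 markers of SCN neurons had a median of 0.17, with Prok2 as the called gene. Within the 0.5 h group the meningeal markers were highest in replicates 2 and 2s, while several other lists divided by the suffix. Oligodendrocyte markers summed to 5341 to 6449 CPM without the suffix and 7796 to 8855 CPM with it, astrocyte markers to 5459 to 5764 and 4315 to 4458 CPM, and markers of neighbouring neurons to 426 to 475 and 339 to 348 CPM. At 1 h the markers of neighbouring neurons summed to 493 and 498 CPM, above all 0.5 h libraries, although their median change was negative. The part of the marker lists in the step was not tested. In bulk tissue, fewer cells of a type and less RNA per cell cannot be told apart. Without 0.5 h replicates 2 and 2s, 43 genes rose and 4 fell, of which 39 and 4 were among the 63 and 9. No member of the lists for cytosolic heat shock (16 tested), ER chaperones (18), cholesterol synthesis (19), potassium channels (24), cytokine and NF-kB feedback (11), neurotrophin signalling (5), cold-inducible RNA binding (4) or GABA and glutamate receptors (20) was called. Among 12 genes known as NPAS4 targets in other neurons, Csrnp1, Gpr3 and Plk2 rose and none fell, with a median of 0.06. Over all genes tested, 0.434% rose.

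The sequence before the start site is shown for 4 risers and 2 fallers, because CREB sites are a shared feature of immediate-early promoters and these genes moved in opposite directions. The 6 were picked among promoters that hold the half-site, after it had been searched. Each is the RefSeq sequence of 250 bases before the start (GRCm38.p6), written 5′ to 3′ on the gene's strand, with capitals for the CREB half-site TGACG on either strand. The palindromic CRE, TGACGTCA, holds the half-site on both strands.
Homer1 (chr13:93303507-93303756, plus strand): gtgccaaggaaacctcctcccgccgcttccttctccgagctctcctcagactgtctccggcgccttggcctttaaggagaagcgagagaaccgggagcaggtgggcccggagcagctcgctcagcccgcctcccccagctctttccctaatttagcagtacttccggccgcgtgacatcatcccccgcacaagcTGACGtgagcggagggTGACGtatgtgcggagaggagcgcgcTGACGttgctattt
Gpr3 (chr4:133212537-133212786, minus strand): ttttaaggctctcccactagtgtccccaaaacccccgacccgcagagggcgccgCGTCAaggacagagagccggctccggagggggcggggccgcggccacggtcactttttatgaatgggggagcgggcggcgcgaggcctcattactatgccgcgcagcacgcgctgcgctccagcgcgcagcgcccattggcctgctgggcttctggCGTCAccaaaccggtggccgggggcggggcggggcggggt
Nr4a3 (chr4:48045055-48045304, plus strand): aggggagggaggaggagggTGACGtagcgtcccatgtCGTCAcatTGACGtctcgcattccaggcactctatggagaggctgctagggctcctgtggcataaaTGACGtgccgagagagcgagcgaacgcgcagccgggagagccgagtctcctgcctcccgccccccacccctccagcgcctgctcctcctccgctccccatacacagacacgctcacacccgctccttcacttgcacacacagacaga
Plk2 (chr13:110394794-110395043, plus strand): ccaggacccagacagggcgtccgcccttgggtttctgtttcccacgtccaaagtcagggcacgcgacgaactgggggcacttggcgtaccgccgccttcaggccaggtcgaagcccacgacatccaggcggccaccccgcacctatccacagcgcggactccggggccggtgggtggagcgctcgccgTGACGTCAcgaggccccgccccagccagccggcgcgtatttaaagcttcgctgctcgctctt
Npas4 (chr19:4989972-4990221, minus strand): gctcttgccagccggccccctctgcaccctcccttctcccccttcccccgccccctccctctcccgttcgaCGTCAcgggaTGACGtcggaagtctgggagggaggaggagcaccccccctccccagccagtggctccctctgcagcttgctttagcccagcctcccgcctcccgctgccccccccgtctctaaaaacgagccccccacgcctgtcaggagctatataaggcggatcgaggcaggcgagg
Btg2 (chr1:134079156-134079405, minus strand): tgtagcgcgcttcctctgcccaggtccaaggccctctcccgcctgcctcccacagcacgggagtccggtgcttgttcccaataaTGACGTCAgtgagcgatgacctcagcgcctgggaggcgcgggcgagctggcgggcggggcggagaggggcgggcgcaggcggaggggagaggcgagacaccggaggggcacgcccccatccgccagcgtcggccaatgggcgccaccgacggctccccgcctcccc
Homer1, shown for the first of its 2 start sites, holds 3 half-sites, Gpr3 2 and Nr4a3 4, with no full CRE. Npas4 holds 2 half-sites and no full CRE. Plk2, a riser, and Btg2, a faller, each hold 1 full CRE, which accounts for both of their half-sites. Among 32851 such promoters, 17.8% hold the half-site and 1.55% the full CRE. The table held a promoter for 46 of the 63 risers and 7 of the 9 fallers, 73.6% of the called genes, so no share over the called genes is given. The windows of other called genes hold no half-site, among them Fosl2, Prok2, Rora, Nab2, Gadd45b, Gadd45g, Dusp10 and Sertad1 of the risers and Tob2, Klf3 and Hs3st1 of the fallers.

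Other motifs were found in some promoters of the called genes. Arl4d, Tinf2, Zfp426 and the second start of Maff also hold the full CRE. Dusp5 holds 2 CArG boxes, the site of SRF, against a share of 1.47% of promoters with any. Prok2 and the first start of Per1 hold the E-box CACGTG, the site of CLOCK and BMAL1, as do 6.02% of promoters. The E-box also stands before Coq10b, Gadd45b, Gadd45g, Irs2, Ndel1 and Ppp1r3c and the second starts of Maff and Pim1. Srxn1 holds 2 AP-1 sites TGANTCA, as does 1 of the starts of Csrnp1, and Prok2, Tinf2 and Usp38 hold 1 each. The motif is present in 6.75% of promoters. All were searched on both strands; a match is a description of these letters only.

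The risers were intermediate in gene length. Their median span was 18.7 kb, with 22 of 63 (34.9%) under 10 kb and 4 (6.3%) over 100 kb. Homer1 at 101 kb and Rora at 735 kb were among those over 100 kb. The 66 genes that were higher at 0.5 h than in CT17 dark (0.454% of the genes tested) had a median span of 7.45 kb. Of these, 36 (54.5%) were under 10 kb and none over 100 kb. They include risers such as Fosl2, Nr4a3, Per1 and Rrad, so the sets overlap. The 9 fallers had a median of 9.55 kb, and 14432 tested genes with a known span one of 25.6 kb. These medians are descriptions with no test.

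Acetylation of histone H3 at lysine 27 (H3K27ac), which accompanies activity of regulatory DNA, was measured in dark and after 1 h of light, with 1 library each and therefore no replicate check. An H3K27ac peak lay within 1 kb of either end of the gene for 49 of 63 risers (77.8%) in dark and 51 (81.0%) in light, against 65.1% and 63.8% of all genes tested. Peaks of the light list without overlap in the dark list lay within 10 kb of 35 risers (55.6%), against 35.3% of all genes. Peaks of the dark list without overlap in the light list lay near 19 risers (30.2%), against 35.0%. With the authors' -log10 q of at least 10, light-only peaks were near 2 risers (3.17%) against 1.504% of all genes, so nearly all of them were weak peaks. The part of the calling threshold in these differences was not tested.

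At single genes, Gpr3 had no H3K27ac peak at its ends in dark and 2 in light (highest fold enrichment 4.33, the authors' value), of which 1 lay over the promoter shown above. Rrad, Maff and Vgf likewise had none in dark and 2, 2 and 3 in light, the highest at 5.05, 5.18 and 4.79. These were the 4 risers with a peak at their ends in the light list alone. Arl4d and Tinf2, 2 other risers, had 1 peak each in dark, at 6.16 and 5.55, and none in light, as did the faller Hs3st1 (5.24). Per1 had 2 in each list, at up to 12.0 in dark and 13.4 in light. Homer1's promoter had 1 peak in dark at 8.60 and 1 in light at 3.93. Prok2, Npas4, Nptx1 and Nr4a2 had none within 1 kb of either end in either list. For Npas4 the start of the promoter shown lies inside the RefSeq span (chr19:4984353-5003439), away from both ends. That promoter had no H3K27ac peak, but a dark-only peak lay elsewhere in the span (chr19:4994314-4994683, fold enrichment 4.60). Nptx1 had a light-only peak beyond 1 kb (chr11:119549177-119549339, 4.79). All 6 promoters shown had a peak of H3K4me3, the promoter mark, in both lists, which for Npas4 stood at 10.7 in dark and 23.3 in light.

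The step was repeated without the libraries of suffix s, which leaves 2 libraries a group. The 0.5 h libraries that remain are all batch 1 and the 1 h libraries all batch 2. The repeat therefore cannot separate the step from the label batch. Over the 12 libraries of the experiment without the suffix, 32 genes rose and 5 fell of 14390 tested. All 32 and 4 of the 5 were among the 63 and 9 (Homer1, Prok2, Gpr3, Fosl2, Rrad, Nr4a3, Per1, Per2 and Npas4 among them). With the 4 libraries of 0.5 h and 1 h alone 6 rose (Fosl2, Homer1, Nptx1, Prok2, Rrad and Srxn1) and Npas4 fell, and with the 6 libraries of the step alone, with a term for the suffix, 16 and 1. All 63 risers and 9 fallers kept their sign in each of these fits. The genes were called from these same libraries, so kept signs, here and below, are a description and no separate support. Adding a term for the label batch beside the suffix left 6 risers and no faller at adjusted p under 0.05, although every one of the 72 kept its sign. In that fit only the 2 CT23 dark libraries, 1 of each batch, tell the label batch from the suffix. The 6 were Homer1, Prok2, Srxn1, Gpr3, Per1 and Gadd45g, with adjusted p from 0.00201 for Homer1 to 0.0236 for Gpr3. A term for the label batch in place of the suffix called 588 higher and 468 lower, 61 and 8 of them among the 63 and 9. Within batch 2 the 0.5 h libraries carry the suffix and the 1 h libraries do not, so that fit does not separate suffix from light. Homer1, Prok2 and Srxn1 were called under each of 21 alternatives, among which Homer1 ranged from 1.60 to 1.95, Prok2 from 2.31 to 3.67 and Srxn1 from 0.80 to 0.97.

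**Figure D5:**
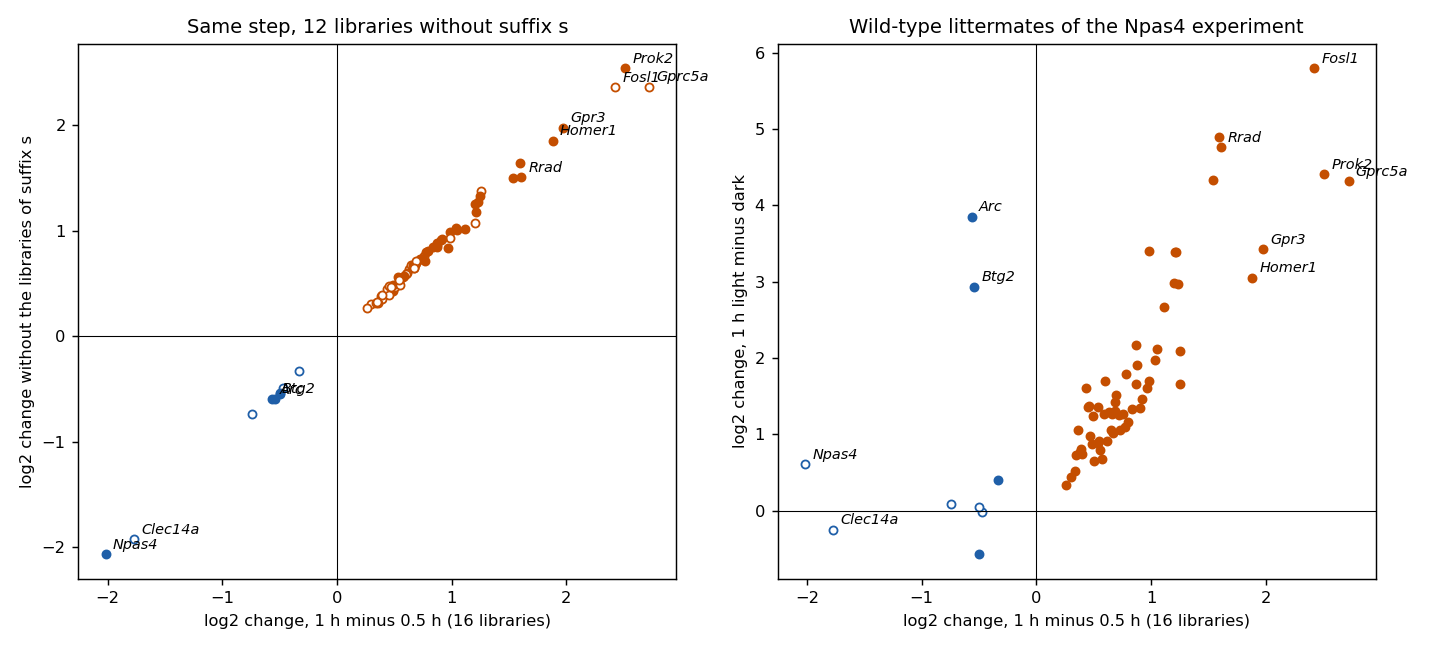
The 72 called genes by their change from 0.5 h to 1 h over 16 libraries (x axis, log2) against the same step without the libraries of suffix s (left, y axis, log2) and against 1 h of light minus dark in WT littermates of the second experiment (right, y axis, log2). Orange marks risers and blue fallers; filled points passed adjusted p under 0.05 in the comparison of the y axis. In the left plot every gene keeps its sign, and in the right plot all 63 risers are above 0 and filled.

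The second experiment has no 0.5 h group, so it shows how the same genes stand at 1 h against dark in separate mice. In WT littermates all 63 risers were higher after 1 h of light than in the dark (edgeR, adjusted p under 0.05), against 2.23% of 15001 genes tested, with a median of 1.35. Homer1 was at 34.7, 37.2 and 30.3 CPM in dark and at 292, 256 and 300.0 CPM in light, a change of 3.05 ± 0.16 (SE). Prok2 was at 0.769, 0.492 and 0.670 CPM and at 18.4, 9.11 and 13.5 CPM (4.41 ± 0.41, SE). For both genes the groups were separated.

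The fallers divided. Arc (3.85), Btg2 (2.93) and Zfp36l2 (0.39) were higher after 1 h of light in WT littermates, and Hs3st1 was lower (-0.58, adjusted p = 0.0212), as were 0.34% of all genes tested. Npas4 was at 8.64, 8.20 and 8.34 CPM in dark and at 13.7, 10.7 and 13.996 CPM after 1 h, slightly higher in each light library but not past the test (0.61, adjusted p = 0.34). Tob2, Klf3, Tmem106a and Clec14a did not pass either.

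In Npas4-/- mice, 60 of the 63 risers were higher after 1 h of light, against 1.45% of the 15001 genes tested, with a median of 1.09; Arl4d, Gadd45g and Rora did not pass. The Npas4 counts do not check the genotype, since the gene stood at 5.27, 10.1 and 10.4 CPM in dark Npas4-/- libraries and at 4.55, 7.63 and 5.19 CPM after light, and the labels do not name the deleted part. A test of the difference between the genotypes in the light response, added after the data were seen, called no riser and no faller (edgeR interaction term), against 2 genes in all (0.0133%). At an unadjusted p under 0.05 it gave 29 of the 63 risers and 3 of the 9 fallers, against 2.28% of all genes tested. The risers all rose with light in WT littermates, as did 2.23% of all genes, so these shares compare unlike sets. Among the risers the difference of WT minus Npas4-/- had a median of 0.30. It reached 2.55 ± 0.87 (SE) for Fosl1 and 1.87 ± 0.54 (SE) for Prok2, both with an adjusted p of 0.9999. Fosl1 was near the floor in the dark, at means of 0.0574 CPM in WT and 0.302 CPM in Npas4-/- libraries. The level of Prok2 in the dark was itself higher in Npas4-/- libraries, at 7.61, 3.86 and 8.12 CPM. After light its mean was 37.9 CPM in Npas4-/- and 13.7 CPM in WT. Dusp4 had a difference of 1.29 ± 0.21 (SE, adjusted p = 0.201, edgeR interaction term). It differed mainly in the dark, at means of 5.95 (WT) and 15.1 CPM (Npas4-/-), then 62.2 and 64.5 CPM in light. Klf10 differed mainly in light, at 6.32 and 6.21 CPM in the dark, then 27.5 and 15.6 CPM. How much of the differences came from the dark level was not tested.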

How the data were processed

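Per the submitters' processing notes, which list tools without assigning them to files, the tools include STAR 2.7.1a, HTSeq 0.9.1 and MACS2 2.1.1, with the genome build mm10. The authors deposited whole-number counts per gene and, separately, RPKM. Their peak lists give a fold enrichment and a -log10 q per peak, as deposited. From the counts, edgeR 4.0.16 (R 4.3.3, TMM, filterByExpr, quasi-likelihood test, Benjamini-Hochberg over 14524 of 21999 genes) fitted all 16 libraries with a term per group and one for the suffix s. The standard error is the log2 change divided by the root of F. In data simulated for this step, the fit recovered 60.5% of 200 genes changed by 0.5 on the log2 scale and 94.0% of those changed by 1. The simulated libraries were independent, without an effect of suffix or batch, and genes of low level were not among those changed. These shares may therefore overstate recovery in the real libraries. Peaks were assigned by distance to either end of a RefSeq gene span, in place of the planned start site, because start sites were at hand for too few genes. The genes and lists were chosen with earlier results of these data known. Named are the up to 15 separated genes of largest change each way, up to 4 called members per list, and 30 genes named whatever they did. Alternatives are in the closing section; single-nucleus data were not used here.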

Additional observations from a re-analysis of the deposited data

Results flagged for a closer look

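Among 59 sets of 4 values at 0.5 h (50 named genes and 9 summed marker lists), 2 had a library far from the other 3 by Dixon's ratio, where chance flags about 1 in 20 groups. Rora was at 126 CPM in 0.5 h replicate 1 and at 94.0 to 98.7 CPM in the others; both 1 h libraries were above it. The summed CPM of microglia markers was 276 in 0.5 h replicate 1 and 329 to 337 in the others. In the second experiment, Fos and Nr4a1 were the genes whose light response differed between genotypes past the threshold (edgeR interaction term), by 1.88 ± 0.25 (SE; adjusted p = 0.0453) and 1.70 ± 0.21 (SE; adjusted p = 0.0446) in WT minus Npas4-/-. Fos was at 8.16, 7.97 and 7.84 CPM in dark WT libraries and at 17.9, 24.8 and 22.4 CPM in dark Npas4-/- ones. After 1 h of light it was at 285, 241 and 256 CPM in WT and at 136, 232 and 209 CPM in Npas4-/-. Nr4a1 had the same arrangement, with dark WT libraries at 8.09 to 10.2 CPM, dark Npas4-/- ones at 19.9 to 23.5 CPM, and 1 h libraries at 186 to 241 CPM and 122 to 184 CPM.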

How the results depend on the processing

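The signs of all 63 risers and 9 fallers held under all 21 alternatives, while the counts varied. Since the genes were called from the same libraries, kept signs are no separate support. Genes higher and lower numbered 588 and 468 with a term for the label batch alone, 1805 and 1359 within label batch 2, and 447 and 378 with libraries of the same number summed over the suffix. They fell to 6 and 0 with terms for both suffix and label batch, 32 and 5 over the 12 libraries without the suffix, 6 and 1 over the 4 without it, and 16 and 1 over the 6 libraries of the step alone. DESeq2 gave 87 and 17. Leaving out 1 library gave 28 to 61 higher and 2 to 36 lower. Without both 0.5 h libraries of number 1 the counts were 86 and 321, and without both of number 2 they were 43 and 4; these pairs were chosen after seeing the data. Higher calls made up 87.5% of calls as reported, 55.7% with the label batch term and 21.1% without both libraries of number 1; the cause was not tested. With the replicate number as a block beside the suffix, 83 genes were higher and 12 lower. The numbers were not established as pairs: the deviations of 1 h replicate 1 correlated at 0.17 with those of 0.5 h replicate 1 and at 0.06 with those of replicate 1s. Within the 0.5 h group, replicates 1 and 1s correlated at 0.57, so these libraries may not be independent; the counts of 447 and 378 treat each number as 1 library per group. No filter on low counts (64 and 8), a filter at 1 CPM (64 and 9) and upper-quartile scaling (60 and 10) changed little. In WT littermates, 61 to 63 of the 63 risers stayed higher over the alternatives, the replicate block included (63). With a -log10 q of at least 10, 31 risers had an H3K27ac peak in light (29.5% of all genes did), and within 10 kb 57 did (75.9%). At this depth, genes near 1 CPM such as Fosl1 and Gprc5a rest on few reads, and 2 libraries at 1 h limit every call.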
